A study of Mus musculus with 32 samples.

Results

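The IL-6 family of cytokines and its signaling chain was followed in primary mouse chondrocytes through 10 genes chosen by name, out of 41388 genes counted. They are 4 ligands (Il6, Lif, Il11 and Clcf1), 4 receptor chains (Il6ra, Il6st, Osmr and Lifr), the transcription factor Stat3 and the feedback inhibitor Socs3. All 10 passed the filter on low counts in every comparison. Il6 in every floxed line, and Il11 in the NFKBIZ flox line, passed only through the conditions where they were high. Cytokines of this family signal through gp130, the receptor chain encoded by Il6st, which pairs with itself or with the chains encoded by Lifr or Osmr, while IL-6 first needs its own receptor encoded by Il6ra. The occupied complex activates JAK kinases, which phosphorylate STAT3, and STAT3 in turn induces SOCS3, which binds gp130 and dampens the signal. In joints, IL-6 and its relatives are known as inflammatory mediators made by chondrocytes and synovial cells.

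RNA was sequenced in 32 libraries of chondrocytes from the sternum of C57BL/6 mice, 2 libraries for each of 16 conditions. The study's methods name the sterna and ribs of newborn mice as the source of primary chondrocytes. Wild-type cells were untreated or received for 24 h IL-1β (10 ng/mL), an inflammatory cytokine used to mimic osteoarthritis in culture, FX11 (40 µM), a small-molecule inhibitor of lactate dehydrogenase A, or both. Cells of 3 floxed lines (LDHA flox, NAMPT flox and NFKBIZ flox) were infected for 24 h with adenovirus carrying eGFP alone (GFP virus) or Cre recombinase and eGFP (Cre virus) and then held for 24 h with or without IL-1β. Ldha encodes lactate dehydrogenase A, Nampt the enzyme that salvages NAD+, and Nfkbiz encodes IκB-ζ, a nuclear partner of NF-κB. Cre acted in whatever cells the virus entered, no library was from wild-type cells with Cre virus, and an effect of the virus itself and of the deletion cannot be told apart within a line. The labels name no separate cultures or animals. The p-values rest on the spread between the 2 libraries of each condition, pooled over the conditions of a fit. That spread may be technical.

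By the style of their titles, the libraries fell into 2 sets of 12 (set 1) and 20 (set 2). Totals ranged from 15830658 to 39959888 counts. Replicate 1 of each wild-type, LDHA flox and NAMPT flox condition came from set 1 and replicate 2 from set 2. Both NFKBIZ flox replicates came from set 2. The fit of a single line had no term for the set. Its spread is therefore between sets, except in NFKBIZ flox, where it is within a set. Levels are CPM (counts scaled to library size) with TMM factors, given for replicate 1 and then replicate 2. The deleted genes were lower with Cre virus, as labelled. With IL-1β, Ldha was at 1562 and 1522 CPM with GFP virus against 81.6 and 70.6 with Cre virus. Nampt was at 66.5 and 66.7 against 5.72 and 4.53, and Nfkbiz at 233 and 228 against 29.05 and 31.95. Without IL-1β, Ldha was at 937 and 876 CPM with GFP virus against 119.8 and 110.9 with Cre virus, and Nampt at 60.1 and 54.7 against 6.77 and 6.80. Nfkbiz fell less without IL-1β than with it, from 16.0 and 16.9 to 9.55 and 8.18 CPM. The 9 chondrocyte markers summed to 13370 to 96040 CPM per library, and the 9 macrophage and leukocyte markers to 14.9 to 291.3 CPM. In these bulk libraries, fewer cells of a type and less RNA per cell cannot be told apart. Among wild-type libraries, the set 2 libraries labelled IL-1β and FX11 went against their labels, and wild-type results are therefore given per library at the end.

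In GRCm38 (GENCODE M21), the members are protein-coding genes on 7 chromosomes. The ligand genes are Il6 (ENSMUSG00000025746) at chr5:30013161-30019968, Lif (ENSMUSG00000034394) at chr11:4257557-4272514, Il11 (ENSMUSG00000004371) at chr7:4773055-4782857 and Clcf1 (ENSMUSG00000040663) at chr19:4214238-4223490. The receptor genes are Il6ra (ENSMUSG00000027947) at chr3:89869324-89913162, Il6st (ENSMUSG00000021756) at chr13:112464070-112510086, Osmr (ENSMUSG00000022146) at chr15:6813577-6874969 and Lifr (ENSMUSG00000054263) at chr15:7129559-7197489, with Osmr and Lifr both on chromosome 15. Stat3 (ENSMUSG00000004040) at chr11:100885098-100939540 and Socs3 (ENSMUSG00000053113) at chr11:117966079-117970047 share chromosome 11 with Lif.

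The sequences before the start sites of Il6, Lif and Socs3 are shown because these genes carry the largest ligand responses and the feedback arm. Windows of 250 bases before each RefSeq start (GRCm38.p6) were found for 9 of the 10 genes, and not for Clcf1. Capitals mark matches on either strand to AP-1 (TGANTCA), C/EBP (TTGCNNAA), the κB consensus or STAT (TTCNNNGAA), and bases that GENCODE places in an exon of the gene were left out.
Il6, chr5:30012864-30013113, plus strand: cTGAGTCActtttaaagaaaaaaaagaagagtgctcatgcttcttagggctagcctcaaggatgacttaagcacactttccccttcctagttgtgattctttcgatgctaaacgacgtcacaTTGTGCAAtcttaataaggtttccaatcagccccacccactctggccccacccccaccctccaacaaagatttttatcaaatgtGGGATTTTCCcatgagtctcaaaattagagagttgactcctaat
Lif, chr11:4257318-4257556, plus strand: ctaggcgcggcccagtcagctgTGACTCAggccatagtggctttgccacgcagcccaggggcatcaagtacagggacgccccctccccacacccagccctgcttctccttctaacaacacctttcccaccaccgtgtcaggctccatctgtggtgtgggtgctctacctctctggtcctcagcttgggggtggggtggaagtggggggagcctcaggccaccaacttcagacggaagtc
Socs3, chr11:117969452-117969616, minus strand: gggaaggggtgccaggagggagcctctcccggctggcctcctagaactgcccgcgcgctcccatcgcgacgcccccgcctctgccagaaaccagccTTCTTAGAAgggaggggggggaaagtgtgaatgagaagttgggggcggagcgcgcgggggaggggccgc

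The Il6 window held 3 of the motifs, with an AP-1 match beginning 249 bases before the start, a C/EBP match on the reverse strand beginning at 128 and a κB match beginning at 44. An AP-1 match began 228 bases before the start of Lif, and a STAT match 154 bases before that of Socs3. Of 32851 windows of this length over 27025 genes, 6.75% held the AP-1 motif, 9.56% C/EBP, 3.9% κB and 7.02% STAT, while a further motif, CRE (TGACGTCA), was in 1.55% and in no member. Matches among the members were in 4 genes, the other being an AP-1 match in 1 of the 2 windows of Il11. A match describes letters and is not evidence of a bound site.

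Before IL-1β, gp130 was by far the most abundant of the receptor messages. Per kilobase of exon, Il6st was at 30.1 to 33.8 CPM/kb in the 6 GFP virus libraries without IL-1β, where the median was 9.06 CPM/kb for Osmr, 4.26 for Il6ra and 2.59 for Lifr. Stat3 was at 13.1 and Socs3 at 11.4 CPM/kb on the same scale. The ligands were lower, with Clcf1 at 3.51, Lif at 1.49, Il11 at 0.332 and Il6 at 0.284 CPM/kb. In the 6 GFP virus libraries with IL-1β, Il6 stood at 27.5 and Lif at 17.7 CPM/kb, ahead of Clcf1 (7.48) and Il11 (1.78), and Il6st at 83.6.

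The first comparison asks how IL-1β changes the family in cells given GFP virus. Il6 and Lif rose most, Il6st, Osmr and Socs3 rose by 1 to 2 log2 units, and Il6ra was the member with no call in any line. Over the 3 lines together (24 libraries, library set as covariate), 9 of the 10 members rose and none fell, where 27.7% of all genes tested were called higher and 25.3% lower. Their median log2 fold change was 1.31, against 0.018 over all genes. The members were chosen with earlier results of these data known, so neither these shares nor the medians test the list. Fold changes are given as log2 values ± SE with Benjamini-Hochberg adjusted p-values from edgeR's quasi-likelihood test, and a call is an adjusted p of 0.05 or less.

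Il6, the founding ligand of the family, was near the detection floor without IL-1β. In LDHA flox it stood at 0.263 and 0.570 CPM without and 22.3 and 23.3 with IL-1β. In NAMPT flox the values were 0.205 and 0.211 against 30.6 and 29.2, and in NFKBIZ flox 0.354 and 0.420 against 32.9 and 33.4. Every library with IL-1β was far above every library without it, and the log2 fold change over the lines was 6.49 ± 0.15 (adjusted p = 1.99e-20). The smallest library places 3 counts, taken as the floor, at 0.19 CPM and the largest at 0.0751 CPM, which covers counting error only.

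Lif, which signals through gp130 and the chain encoded by Lifr, reached the highest CPM of the 4 ligands. It rose from 6.11 and 5.86 to 78.5 and 75.4 CPM in LDHA flox, from 7.68 and 7.32 to 116 and 113 in NAMPT flox and from 6.38 and 6.55 to 69.7 and 62.9 in NFKBIZ flox. The groups did not overlap in any line, with a log2 fold change over the lines of 3.70 ± 0.058, adjusted p = 1.05e-23. Il11, a gp130 ligand studied in bone and cartilage, stayed low. It went from 0.410 and 0.326 to 2.04 and 2.68 CPM in LDHA flox, from 0.640 and 0.474 to 3.87 and 3.37 in NAMPT flox and from 0.620 and 0.168 to 1.09 and 1.43 in NFKBIZ flox. The last difference missed the threshold (1.70 ± 0.68, adjusted p = 0.0869), but was called by limma (adjusted p = 0.0166) and with all 24 floxed libraries in one fit (0.0277). Clcf1, a ligand that is secreted with a soluble partner and acts through the CNTF receptor, rose by 0.97 ± 0.075 over the lines, to 16.9 to 33.5 CPM from 10.5 to 16.2 CPM.

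**Figure D1:**
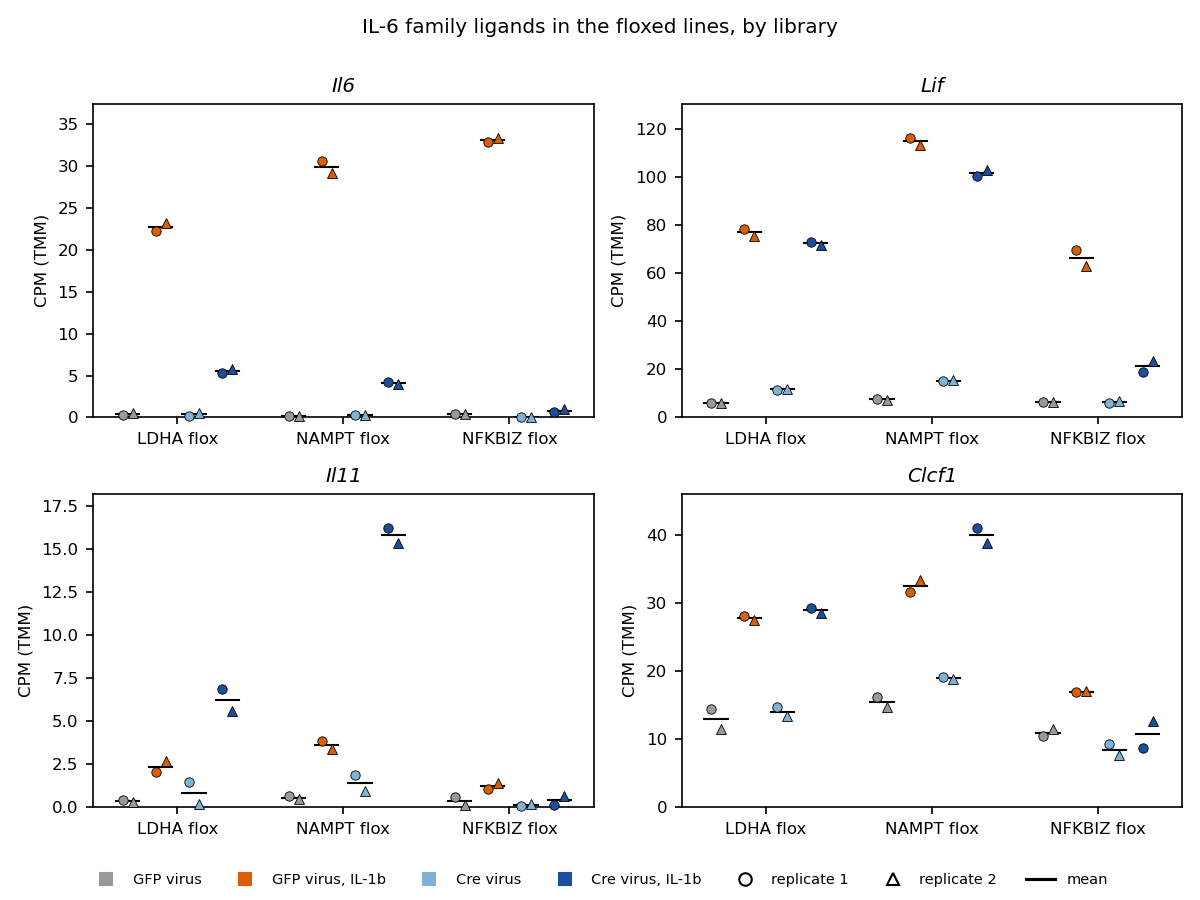
CPM of Il6, Lif, Il11 and Clcf1 in each of the 24 libraries of the floxed lines, with circles for replicate 1, triangles for replicate 2 and bars for the mean of the 2 libraries. Il6 with IL-1β lies between 22.3 and 33.4 CPM under GFP virus and between 0.635 and 5.73 CPM under Cre virus.

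Among the receptors, Il6st stood at 375 and 360.4 CPM in LDHA flox, 364 and 349.5 in NAMPT flox and 344 and 334 in NFKBIZ flox without IL-1β. With IL-1β it stood at 949 and 908 in LDHA flox, 855 and 874 in NAMPT flox and 1005 and 1026 in NFKBIZ flox, a rise of 1.44 ± 0.035 over the lines (adjusted p = 3.22e-20). Osmr, the partner chain for oncostatin M, rose by 1.17 ± 0.055, from 105.6 to 129.2 CPM without IL-1β to 215.4 to 293.9 CPM with it. Lifr rose by 0.47 ± 0.051, and its NFKBIZ flox call (0.31 ± 0.10, adjusted p = 0.0402) was lost when any 1 of the 4 libraries was left out (adjusted p 0.21 without GFP replicate 1, 0.118 without GFP replicate 2, 0.223 without GFP and IL-1β replicate 1 and 0.104 without GFP and IL-1β replicate 2), by DESeq2 (0.0653) and with no filter (0.0745). The Clcf1 call in this line was lost in the same 4 cases (adjusted p 0.125, 0.0586, 0.0809 and 0.0877). Il6ra, the chain that binds IL-6 itself, was at 12.7 to 15.5 CPM without and 14.1 to 19.6 CPM with IL-1β, and its log2 difference of 0.19 ± 0.08, adjusted p = 0.051 had a 95% interval of 0.024 to 0.36. By limma it was called (adjusted p = 0.0125), which made all 10 members. In edgeR that adjusted p fell to 0.0412 without LDHA flox GFP replicate 1 and to 0.0451 without NFKBIZ flox GFP and IL-1β replicate 2.

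Stat3 and its inhibitor Socs3 both rose with IL-1β. Stat3 without IL-1β was at 122 and 127 CPM in LDHA flox, 122 and 123 in NAMPT flox and 130.4 and 132 in NFKBIZ flox. With IL-1β it was at 174 and 163 in LDHA flox, 172 and 171 in NAMPT flox and 227 and 206 in NFKBIZ flox, which over the lines was a rise of 0.59 ± 0.044. Exons of Stat3 overlap Stat5a on the opposite strand, and the sources do not state strand-aware counting. Only unambiguous reads were counted, so whether reads in the overlap entered the Stat3 counts cannot be told. Socs3 without IL-1β stood at 37.5 and 34.2 CPM in LDHA flox, 34.8 and 31.5 in NAMPT flox and 27.7 and 29.5 in NFKBIZ flox. With IL-1β it stood at 103 and 94.7 in LDHA flox, 96.2 and 84.9 in NAMPT flox and 81.1 and 85.2 in NFKBIZ flox. Its log2 fold change was 1.52 ± 0.055, adjusted p = 6.83e-17, and no library with IL-1β was as low as any without it. Within the lines, 9 members rose in LDHA flox, where 14.5% of all genes were called higher and 13.3% lower. In NAMPT flox 9 rose (17.7% of all genes higher, 17.3% lower), and in NFKBIZ flox 8 rose (15.2% higher, 11.7% lower). No member fell in any of the 3 lines.

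**Figure D2:**
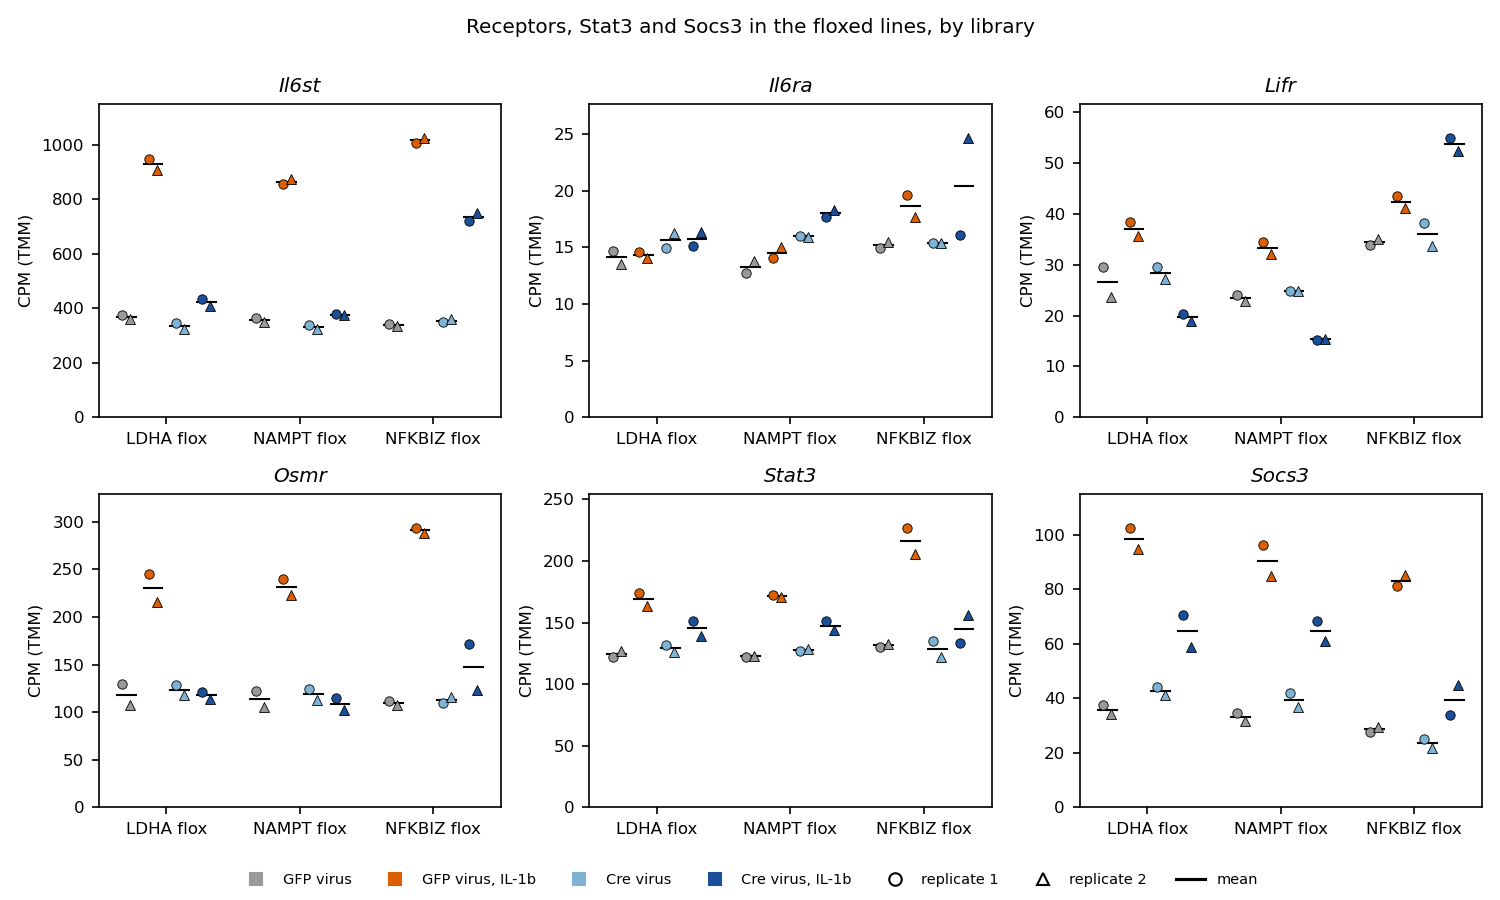
CPM of Il6st, Il6ra, Lifr, Osmr, Stat3 and Socs3 in each of the 24 libraries of the floxed lines, with circles for replicate 1, triangles for replicate 2 and bars for the mean. Lifr with IL-1β under Cre virus is at 15.2 to 20.4 CPM in LDHA flox and NAMPT flox and at 52.3 to 54.9 CPM in NFKBIZ flox.

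Markers of other cells moved in the same comparison. The summed macrophage and leukocyte markers stood at 14.9 to 26.5 CPM with GFP virus and at 32.2 to 66.0 CPM with GFP virus and IL-1β. Of the 9 markers, 4 were called higher of 8 tested in LDHA flox, 3 of 5 in NAMPT flox and 3 of 6 in NFKBIZ flox, Cd14 with the largest change (2.29, 2.58 and 3.13). The pan-leukocyte marker Ptprc was at 0.20 to 1.22 CPM without and 0.40 to 1.13 CPM with IL-1β. All 9 chondrocyte markers fell in each line, with a median log2 fold change between -1.38 and -1.5. The part of these shifts in the members' changes was not tested.

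The second comparison asks what the 3 deletions do to the family while IL-1β is present, Cre virus against GFP virus within a line. Il6 fell in all 3 lines and by far the most in NFKBIZ flox, Osmr, Il6st and Socs3 also fell in all 3, and Il11 rose in LDHA flox and NAMPT flox. These comparisons and the IL-1β comparison above share the libraries with GFP virus and IL-1β. In LDHA flox 5 members fell and 1 rose, where 17.0% of all genes fell and 16.9% rose. In NAMPT flox 7 fell and 3 rose (23.4% and 25.0% of all genes), and in NFKBIZ flox 7 fell and 1 rose (9.2% and 8.16% of all genes). Marker genes moved with Cre virus in the same comparisons. Of the 9 chondrocyte markers, 8 fell in LDHA flox (median -0.88) and 7 in NAMPT flox (median -0.86), while in NFKBIZ flox 1 rose and 1 fell (median 0.13). All 6 fibroblast and perichondrium markers fell in LDHA flox (median -0.67) and NAMPT flox (median -0.85), and in NFKBIZ flox 1 rose and 1 fell (median 0.19). The chondrocyte markers with IL-1β summed to 25580 to 26760 CPM under GFP virus and 13370 to 15170 CPM under Cre virus in LDHA flox and NAMPT flox, and to 30170 to 32270 and 35900 to 38720 CPM in NFKBIZ flox. Their part in the members' changes was not tested.

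With Cre virus and IL-1β, Il6 stood at 5.28 and 5.73 CPM in LDHA flox, 4.27 and 3.96 in NAMPT flox and 0.635 and 0.989 in NFKBIZ flox, all under the lowest GFP virus library with IL-1β, at 22.3 CPM. The log2 fold changes against GFP virus were -2.02 ± 0.26, adjusted p = 0.00024 in LDHA flox, -2.85 ± 0.13, adjusted p = 4.29e-08 in NAMPT flox and -5.36 ± 0.25, adjusted p = 1.95e-08 in NFKBIZ flox. Lif behaved otherwise in LDHA flox and NAMPT flox, at 73.0 and 71.7 and 100.3 and 103 CPM, and only NFKBIZ flox had a large fall, to 19.0 and 23.6 CPM (-1.65 ± 0.13, adjusted p = 2.2e-06). The LDHA flox difference was -0.056 ± 0.073, adjusted p = 0.607, with a 95% interval of -0.22 to 0.11. The small NAMPT flox fall (-0.17 ± 0.065, adjusted p = 0.0492) was lost without any 1 of the 4 libraries, with adjusted p of 0.0826 and 0.129 without GFP replicates 1 and 2 and 0.148 and 0.0904 without Cre replicates 1 and 2, and by DESeq2 (0.0992), with no filter (0.308) and with filterByExpr (0.0675).

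Il11 moved opposite to Il6 in LDHA flox and NAMPT flox. With Cre virus and IL-1β it was at 16.3 and 15.4 CPM in NAMPT flox, its highest in any library, and at 6.87 and 5.59 in LDHA flox, above the GFP virus libraries of the same line. The log2 fold changes were 2.12 ± 0.24, adjusted p = 3.7e-05 and 1.44 ± 0.49, adjusted p = 0.0458. The LDHA flox call was lost without any 1 of its 4 libraries, with adjusted p of 0.22 and 0.0932 without GFP replicates 1 and 2 and 0.195 and 0.117 without Cre replicates 1 and 2. In NFKBIZ flox Il11 was at 0.169 and 0.645 CPM, and the difference of -1.63 ± 0.68, adjusted p = 0.123 missed the threshold, but was called with all 24 floxed libraries in one fit (adjusted p = 0.0432). The 4 endothelial markers summed to 16.3 to 26.4 CPM in the LDHA flox and NAMPT flox libraries with Cre virus and IL-1β and to 4.75 to 7.27 CPM in those with GFP virus and IL-1β. Of the 4, only Kdr was called higher in LDHA flox, where 16.9% of all genes were higher and 17.0% lower. In NAMPT flox Kdr and Cdh5 were called higher and Pecam1 lower, where 25.0% of all genes were higher and 23.4% lower. None of the 4 markers was at 0 in every library of a group. Their part in the change of Il11 was not tested.

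Clcf1 was at 29.3 and 28.6 CPM in LDHA flox with Cre virus and IL-1β (0.093 ± 0.11, adjusted p = 0.55). It rose in NAMPT flox (0.30 ± 0.085, adjusted p = 0.0132) and fell in NFKBIZ flox (-0.67 ± 0.18, adjusted p = 0.0218), both small changes. The NAMPT flox call was lost without GFP replicate 1 (adjusted p = 0.151) or Cre replicate 1 (adjusted p = 0.107) of the libraries with IL-1β, or with all 24 floxed libraries in one fit (0.0657). The NFKBIZ flox call was lost without GFP replicate 1, GFP replicate 2 or Cre replicate 1 (adjusted p of 0.107, 0.111 and 0.088).

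**Figure D3:**
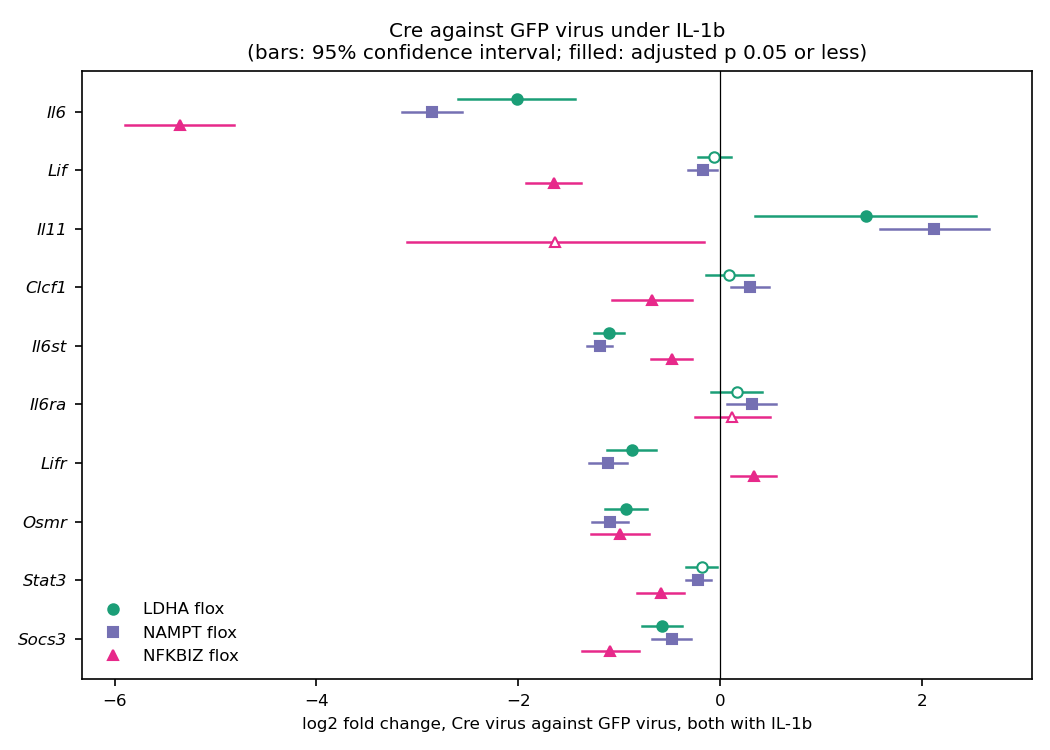
Log2 fold change of the 10 members between Cre virus and GFP virus, both with IL-1β, in each floxed line, with 95% confidence intervals, where filled points have an adjusted p of 0.05 or less. Il6 lies at -2.02, -2.85 and -5.36 in LDHA, NAMPT and NFKBIZ flox, while Lifr lies below 0 in the first and the second and above 0 in NFKBIZ flox.

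In LDHA flox and NAMPT flox, Il6st, Osmr and Lifr with Cre virus and IL-1β were under every GFP virus library with IL-1β of the same line. Il6st was at 435 and 409.5 CPM in LDHA flox (-1.10 ± 0.068, adjusted p = 2.16e-06) and 380.1 and 374 in NAMPT flox (-1.19 ± 0.056, adjusted p = 4.41e-08). In NFKBIZ flox it stayed high, at 719 and 751 CPM (-0.48 ± 0.094, adjusted p = 0.00356), a call lost without GFP and IL-1β replicate 2 (adjusted p = 0.054). Osmr was at 121 and 114 CPM in LDHA flox, 115 and 102 in NAMPT flox and 172 and 123 in NFKBIZ flox, with log2 fold changes of -0.93 ± 0.093, -1.09 ± 0.082 and -0.99 ± 0.13. The NFKBIZ flox replicates of Osmr were wide apart, and both were under the GFP virus libraries with IL-1β.

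Lifr was the receptor whose direction differed. It fell to 20.4 and 19.0 CPM in LDHA flox (-0.88 ± 0.11, adjusted p = 0.000191) and 15.2 and 15.5 in NAMPT flox (-1.11 ± 0.085, adjusted p = 1.6e-06), under its levels without IL-1β. In NFKBIZ flox it rose to 54.9 and 52.3 CPM from 43.5 and 41.1 (0.33 ± 0.10, adjusted p = 0.0415). That rise was lost without GFP replicate 1 (adjusted p = 0.134), GFP replicate 2 (0.258) or Cre replicate 1 (0.0725) of the libraries with IL-1β, and by DESeq2 (0.0559), limma (0.0512) or no filter (0.0581). Il6ra was called in NAMPT flox only (0.31 ± 0.11, adjusted p = 0.0345), with adjusted p of 0.254 and 0.0531 without GFP replicates 1 and 2 and 0.0871 and 0.138 without Cre replicates 1 and 2, 0.0861 by DESeq2, 0.0573 with no filter and 0.095 with all 24 floxed libraries in one fit. In NFKBIZ flox, whose Cre and IL-1β replicates were at 16.1 and 24.7 CPM, Il6ra was called without Cre and IL-1β replicate 1 (adjusted p = 0.0487).

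Socs3 fell in all 3 lines, to 70.5 and 58.9 CPM in LDHA flox (-0.58 ± 0.089), 68.4 and 61.2 in NAMPT flox (-0.48 ± 0.088) and 33.9 and 45.0 in NFKBIZ flox (-1.09 ± 0.13). Stat3 was at 134 and 156 CPM in NFKBIZ flox (-0.59 ± 0.11, adjusted p = 0.00192) and 151 and 144 in NAMPT flox (-0.22 ± 0.057, adjusted p = 0.00926). The NAMPT flox call was lost without Cre and IL-1β replicate 2 (adjusted p = 0.0663) or with no filter (0.0783). The LDHA flox difference in Stat3 was -0.18 ± 0.067, adjusted p = 0.0622. It was called with the replicate block (adjusted p = 0.0151), by limma (0.0392), with filterByExpr (0.0405) and with all 24 floxed libraries in one fit (0.0378).

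Without IL-1β, Cre virus moved few members. In LDHA flox Lif alone was called, at 11.5 and 12.0 CPM against 6.11 and 5.86 (0.96 ± 0.089, adjusted p = 0.000317), where 3.43% of all genes were higher and 2.09% lower. In NAMPT flox (8.3% and 6.07% of all genes) Lif was at 15.1 and 15.5 against 7.68 and 7.32 CPM (1.02 ± 0.08, adjusted p = 1.54e-05), and Il11 (1.33 ± 0.34, adjusted p = 0.0262) and Clcf1 (0.30 ± 0.089, adjusted p = 0.0494) were also called. Il11 lost the call without GFP replicate 1, GFP replicate 2 or Cre replicate 1 (adjusted p of 0.095, 0.088 and 0.288), and Clcf1 without any 1 of the 4 libraries (0.081 and 0.151 without GFP replicates 1 and 2, 0.155 and 0.171 without Cre replicates 1 and 2). By limma the adjusted p was 0.121 for Il11 and 0.0951 for Clcf1, and with all 24 floxed libraries in one fit 0.0708 and 0.108, while Clcf1 was also lost by DESeq2 (0.109), with no filter (0.113) and with filterByExpr (0.0595). With the library set as a replicate block, Socs3 was called in LDHA flox (log2 fold change 0.25, adjusted p = 0.0277) and, in NAMPT flox, Socs3 (0.25, adjusted p = 0.00282) and Il6st (-0.10, adjusted p = 0.0384). Il11 in LDHA flox was at 1.45 and 0.226 CPM and was called only without Cre replicate 2 (adjusted p = 0.0431).

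In NFKBIZ flox without IL-1β, edgeR called no member, DESeq2 likewise none, and 1 member had an unadjusted p under 0.05, where 0.111% of all genes were higher and 0.15% lower. That member was Il6, with 2 counts over both Cre virus libraries against 18 over both GFP virus libraries, a ratio of normalized levels of 0.117 with a 95% counting interval of 0.0132 to 0.489, and edgeR called it when no filter was set (adjusted p = 0.0343). Lif was at 5.97 and 6.68 CPM against 6.38 and 6.55, a log2 difference with a 95% interval of -0.37 to 0.30. Nfkbiz itself was at 9.55 and 8.18 CPM in these Cre virus libraries against 16.0 and 16.9 with GFP virus.

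The third comparison asks how IL-1β acts once Cre virus has been given. IL-1β still raised Il6 in each line, by 4.10 ± 0.38 in LDHA flox from 0.182 and 0.541 CPM and by 3.76 ± 0.20 in NAMPT flox from 0.317 and 0.309 CPM. In NFKBIZ flox 38 counts with and 2 counts without IL-1β gave a ratio of 17.9 with a counting interval of 4.62 to 152.9. Lif rose by 2.69, 2.79 and 1.76 in LDHA, NAMPT and NFKBIZ flox. Il11 rose in LDHA flox (2.87 ± 0.53) and NAMPT flox (3.50 ± 0.26), while its NFKBIZ flox difference was 1.55 ± 0.92, adjusted p = 0.25. Clcf1 rose in the same lines, by 1.11 and 1.13, and its NFKBIZ flox difference of 0.35 ± 0.19, adjusted p = 0.202 became a call without Cre and IL-1β replicate 1 (adjusted p = 0.0205).

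Among the receptors under Cre virus, Il6st rose by 0.40 and 0.24 in LDHA flox and NAMPT flox and by 1.06 in NFKBIZ flox. Lifr fell with IL-1β in LDHA flox (-0.46 ± 0.11, adjusted p = 0.0085) and NAMPT flox (-0.63 ± 0.084, adjusted p = 0.000126) and rose in NFKBIZ flox (0.59 ± 0.10, adjusted p = 0.00167). The LDHA flox fall was lost without Cre replicate 1 (adjusted p = 0.0577). Osmr had no call in LDHA flox (95% interval -0.21 to 0.21) or NAMPT flox (-0.25 to 0.11). In NFKBIZ flox it rose (0.40 ± 0.13, adjusted p = 0.0471), a call lost without Cre replicate 1 (adjusted p = 0.151), Cre replicate 2 (0.108) or Cre and IL-1β replicate 1 (0.277), by limma (0.052) and with filterByExpr (0.053). Il6ra in NFKBIZ flox (0.42 ± 0.17, adjusted p = 0.103) became a call without Cre and IL-1β replicate 1 (adjusted p = 0.00217), with no filter (0.0408) and with all 24 floxed libraries in one fit (0.0212).

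Socs3 rose under Cre virus in all 3 lines, by 0.66, 0.77 and 0.76. Stat3 rose in LDHA flox (0.24 ± 0.068, adjusted p = 0.0214) and NAMPT flox (0.27 ± 0.057, adjusted p = 0.00277), and the LDHA flox call was lost without any 1 of the 4 libraries (adjusted p of 0.0809 and 0.122 without Cre replicates 1 and 2, 0.141 and 0.0515 without Cre and IL-1β replicates 1 and 2), with no filter (0.099) and with filterByExpr (0.0709). In counts, 7 members rose and 1 fell in LDHA flox (19.5% and 16.3% of all genes). In NAMPT flox 7 rose and 1 fell (24.3% and 19.6%), and in NFKBIZ flox 6 rose and none fell (11.7% and 10.3%).

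**Figure D4:**
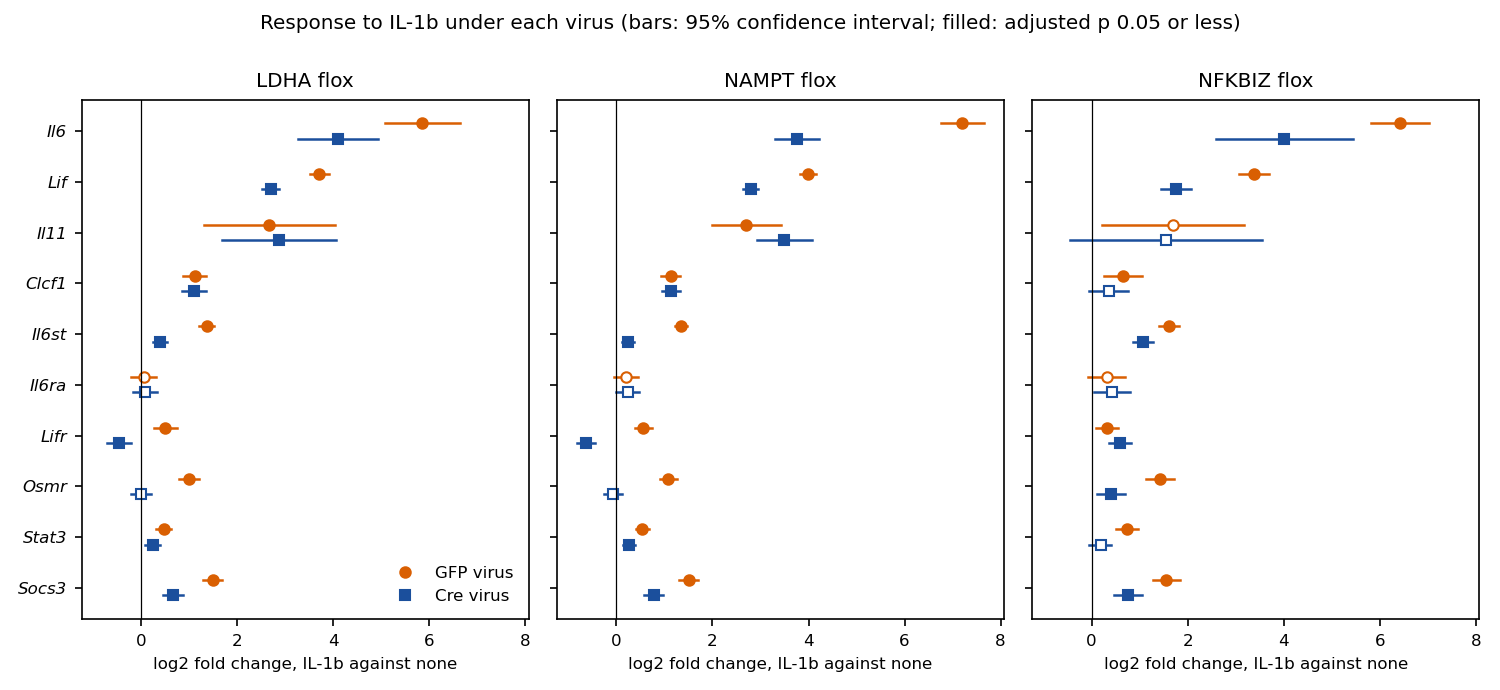
Log2 fold change of the 10 members with IL-1β under GFP virus (circles) and Cre virus (squares) in each line, with 95% confidence intervals, where filled points have an adjusted p of 0.05 or less. Lifr lies above 0 under GFP virus in all 3 lines and below 0 under Cre virus in LDHA flox (-0.46) and NAMPT flox (-0.63).

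The difference between the IL-1β responses under Cre and GFP virus was tested as an interaction in each line. Lif, Il6st, Osmr and Socs3 had a smaller response under Cre virus in all 3 lines. In LDHA flox these were joined by Lifr, for 5 members lower and none higher, where 5.6% of all genes were lower and 5.89% higher. In NAMPT flox 7 were lower, with Il6, Lifr and Stat3 added (9.98% and 12.0% of all genes), and in NFKBIZ flox the 4 alone (3.5% and 1.69%).

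For Lif the interaction was -1.02 ± 0.12, -1.20 ± 0.10 and -1.62 ± 0.20 in LDHA, NAMPT and NFKBIZ flox, and in LDHA flox and NAMPT flox it came with the higher Lif level under Cre virus without IL-1β. For Osmr it was -0.99 ± 0.13, -1.15 ± 0.12 and -1.02 ± 0.19. For Il6 it was -3.45 ± 0.38, adjusted p = 0.00012 in NAMPT flox, -1.76 ± 0.60, adjusted p = 0.0976 in LDHA flox and -2.40 ± 1.35, adjusted p = 0.399 in NFKBIZ flox, where the level without IL-1β under Cre virus rests on 2 counts. The LDHA flox value for Il6 became a call without Cre replicate 1 (adjusted p = 0.0322) with the replicate block (0.0294), by DESeq2 (0.0184), with no filter (0.00624) and with all 24 floxed libraries in one fit (0.0204). The Stat3 interaction in NAMPT flox (-0.27 ± 0.08, adjusted p = 0.0338) was lost in 5 of the 8 omissions, and Il11 became a call (0.0311 without Cre replicate 1). For Stat3 those adjusted p-values were 0.0819 without GFP replicate 1, 0.0611 without Cre replicate 1, 0.104 without Cre replicate 2, 0.0873 without GFP and IL-1β replicate 2 and 0.11 without Cre and IL-1β replicate 2, and 0.166 with no filter.

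In NFKBIZ flox the interactions of Il6st (-0.54 ± 0.13, adjusted p = 0.0346) and Socs3 (-0.80 ± 0.19, adjusted p = 0.0271) depended on single libraries. Without GFP replicate 1, GFP replicate 2, GFP and IL-1β replicate 1, GFP and IL-1β replicate 2, or Cre replicate 1, both were lost, with adjusted p of 0.127, 0.185, 0.167, 0.18 and 0.0623 for Il6st and 0.115, 0.0834, 0.0947, 0.122 and 0.094 for Socs3, and the count of members called went from 4 to 2. Il6st was also lost without Cre replicate 2 (adjusted p = 0.115). Stat3, at -0.55 ± 0.15, adjusted p = 0.0531, was called by DESeq2 (0.0275) and limma (0.0314), with no filter (0.017), with all 24 floxed libraries in one fit (0.00114), and without Cre and IL-1β replicate 1 (0.049) or replicate 2 (0.0125).

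The fourth comparison asks whether the effect of Cre virus under IL-1β differed between lines. Every floxed group received a virus, and what Cre virus does alike in all lines cancels in this difference. NFKBIZ flox was set against the mean of LDHA flox and NAMPT flox, all 24 libraries in 1 model with the library set as covariate. The effect on the 4 ligands was lower in NFKBIZ flox, and that on Il6st and Lifr higher. Of the members 6 were lower and 2 higher, where 18.0% of all genes were lower and 19.5% higher. In the same contrast 8 of the 9 chondrocyte markers (median 1.10) and all 6 fibroblast and perichondrium markers (median 0.87) were higher, the direction of Il6st and Lifr, and their part in the result was not tested.

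The difference in log2 fold change was -2.88 ± 0.28, adjusted p = 2.09e-08 for Il6 and -1.49 ± 0.11, adjusted p = 1.16e-10 for Lif. It was -3.39 ± 0.63, adjusted p = 0.000163 for Il11, the largest estimate, and -0.83 ± 0.16, adjusted p = 0.000268 for Clcf1. The 95% interval for Il11 (-4.70 to -2.09) covered that for Il6 (-3.46 to -2.30), and Il11 in NFKBIZ flox rests on few counts. For the receptors the difference was 1.37 ± 0.11, adjusted p = 6.64e-10 for Lifr and 0.71 ± 0.073, adjusted p = 4.47e-08 for Il6st. For Osmr the difference was 0.063 ± 0.12, with a 95% interval of -0.18 to 0.30, although without NFKBIZ flox Cre and IL-1β replicate 2 it was called (adjusted p = 0.00993), as was Il6ra (0.0218). Socs3 (-0.52 ± 0.11, adjusted p = 0.000971) and Stat3 (-0.35 ± 0.093, adjusted p = 0.00489) were lower. Stat3 lost the call without NFKBIZ flox GFP and IL-1β replicate 1 (adjusted p = 0.0548). Within set 2 alone, 6 members remained called, with Socs3 (adjusted p = 0.0652) and Stat3 (0.123) lost.

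The interaction itself differed between NFKBIZ flox and the other lines for Lifr (1.40 ± 0.15, adjusted p = 8.55e-07) and Il6st (0.54 ± 0.10, adjusted p = 0.000868), both higher, where 7.43% of all genes were higher and 6.92% lower. Within set 2 alone the Il6st call was lost (log2 difference 0.54, adjusted p = 0.172). In this contrast 6 chondrocyte markers were higher and 1 lower, and 3 fibroblast and perichondrium markers were higher. For Il6 it was 0.26 ± 0.78, with a 95% interval of -1.36 to 1.87. Without NFKBIZ flox Cre and IL-1β replicate 2 the number called went from 2 to 4, with Lif (adjusted p = 0.0093) and Stat3 (0.0303) added.

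Between LDHA flox and NAMPT flox the effect of Cre virus under IL-1β had no member called by edgeR, where 0.227% of all genes were higher and 0.311% lower. DESeq2 called none and limma 1 (Il6, adjusted p = 0.0145), and 1 member had an unadjusted p under 0.05. This was also Il6, whose fall was smaller in LDHA flox by 0.85 ± 0.25 (adjusted p = 0.144, 95% interval 0.32 to 1.37). The intervals of the others were narrow for Il6st (-0.072 to 0.28) and Lif (-0.11 to 0.37) and wide for Il11 (-1.75 to 0.38).

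Other genes of the pathway were taken from lists written by name, also with earlier results of these data known, and are given with their counts of calls. All 7 listed regulators of the Il6 transcript rose over the 3 lines, where 27.7% of all genes rose. Among them were Zc3h12a, the RNase that degrades Il6 mRNA (4.28), Nfkbiz (3.43), Zfp36, another decay factor (0.97), and Arid5a, which stabilizes the mRNA (0.86). With Cre virus and IL-1β, 5 of the 7 fell in each line, where 17.0%, 23.4% and 9.2% of all genes fell in LDHA, NAMPT and NFKBIZ flox. The list holds Nfkbiz itself, whose fall in NFKBIZ flox is that of the deleted gene. Rela rose in NAMPT flox, where 25.0% of all genes rose. Zc3h12a changed by -0.47, -0.24 and -1.47 in LDHA, NAMPT and NFKBIZ flox, and Nfkbiz by -1.30 and -1.64 in the lines where it is not the deleted gene. The list median, with Nfkbiz included, went to -0.43, -0.24 and -0.53 in the 3 lines, against -0.016, -0.030 and -0.009 over all genes.

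Of 14 textbook STAT3 targets, 11 rose and 2 fell with IL-1β over the lines, where 27.7% of all genes rose and 25.3% fell. Their median was 0.90 against 0.018 over all genes. The C/EBP factor Cebpd rose by 3.23 and the NF-κB partner Bcl3 by 3.94, while the cell cycle gene Ccnd1 fell by 0.54 on the log2 scale. Under Cre virus and IL-1β the list was mixed in LDHA flox (2 higher, 7 lower) and NAMPT flox (5 higher, 6 lower) and mostly lower in NFKBIZ flox (1 higher, 9 lower). Of all genes, 16.9% were higher and 17.0% lower in LDHA flox, 25.0% and 23.4% in NAMPT flox, and 8.16% and 9.2% in NFKBIZ flox. Cebpd fell in each line (-1.53, -1.79 and -2.51), and Ccnd1 rose in each (2.45, 2.51 and 1.98). Many of these genes also respond to other factors, and the part of STAT3 was not tested.

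The other family receptors held a large change. Cntfr, the receptor for CNTF and for CLCF1, was at 1.78 to 2.42 CPM in the 6 libraries with GFP virus and IL-1β. With Cre virus and IL-1β its lower and higher libraries were 44.8 and 48.4 CPM in LDHA flox, 64.4 and 64.7 in NAMPT flox and 5.42 and 5.46 in NFKBIZ flox. The log2 fold changes were 4.43 ± 0.14, adjusted p = 5.01e-08, 5.17 ± 0.11, adjusted p = 4.29e-10 and 1.24 ± 0.29, adjusted p = 0.0106, and the rise was smaller in NFKBIZ flox, with a difference of -3.51 ± 0.24, adjusted p = 6.28e-11. Without IL-1β Cntfr was also higher with Cre virus in LDHA flox (2.23) and NAMPT flox (3.08). Of 5 listed receptors, 4 could be tested over the lines, and with IL-1β alone Il11ra1, the receptor of IL-11, fell by 0.49 and Il31ra rose by 1.36.

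Of 8 other ligands and soluble partners only 3 passed the filter on low counts over the lines, of which Ctf2 rose (1.48) and Ctf1, cardiotrophin 1, fell (-0.70) with IL-1β. Both sheddases that cleave the IL-6 receptor rose, Adam17 by 0.67 and Adam10 by 0.27. Of 9 JAK kinases and other STAT factors tested, 6 rose and none fell with IL-1β (median 0.31), where 27.7% of all genes rose and 25.3% fell (median 0.018). Jak2 rose the most (0.77), and Jak2 fell with Cre virus under IL-1β in each line (-0.43, -0.49 and -1.04). Of 9 other SOCS and PIAS genes and phosphatases, 4 rose and 3 fell, near the share over all genes (list median 0.080), with Ptpn2, a phosphatase that acts on JAK and STAT proteins, changing most (1.04). Socs1, a JAK inhibitor, was higher with Cre virus under IL-1β in LDHA flox (0.89) and NAMPT flox (1.66), opposite in sign to Socs3.

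In the wild-type libraries of set 1, Il6 was high only with IL-1β. It was at 0.120 CPM untreated, 0.0281 with FX11, 59.1 with IL-1β and 14.4 with both. In set 2, the library labelled IL-1β had no Il6 count and 1.54 CPM of Lif, while the library labelled FX11 had 15.1 CPM of Il6 and 34.9 CPM of Lif. Nfkbiz, which IL-1β raised in every floxed line, was at 9.93 CPM in the former and 167.6 CPM in the latter. Untreated cells of set 2 had 0.0732 CPM of Il6 and the library with both agents 5.16 CPM.

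**Figure D5:**
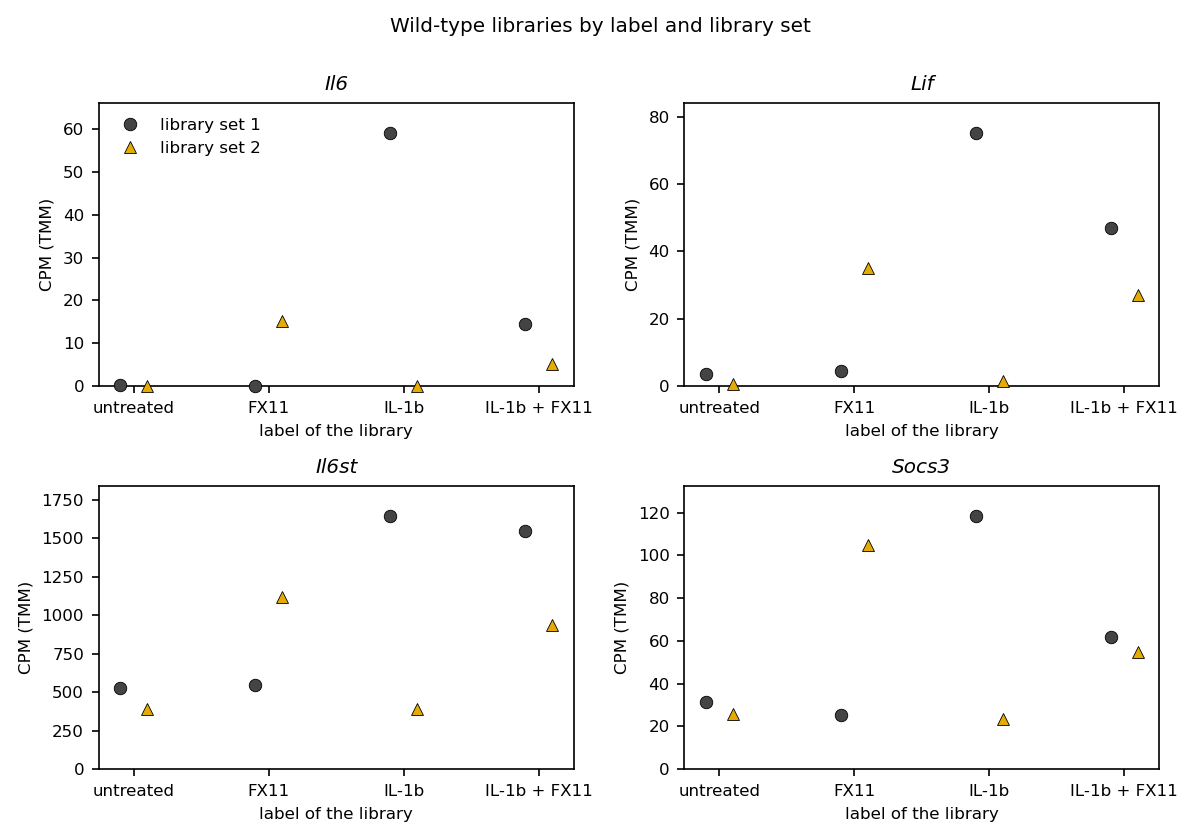
CPM of Il6, Lif, Il6st and Socs3 in the 8 wild-type libraries by the label of the library, with circles for set 1 and triangles for set 2. The set 2 library labelled IL-1β lies near the untreated libraries and the one labelled FX11 lies among those with IL-1β, for Il6st at 391.8 and 1119 CPM.

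With both replicates as labelled, edgeR called 0 of 15461 genes (0.0%) in each of the 4 wild-type comparisons, IL-1β, FX11, FX11 with IL-1β, and both agents against none. At an unadjusted p of 0.05 there were 153, 68, 102 and 860 genes, none of them a member, and DESeq2 called 2 higher and 4 lower, 2 and 0, 0 and 1, and 47 and 97 in the same order, again without a member. The log2 change of Il6 with FX11 under IL-1β was -1.59 ± 2.52, with a 95% interval of -7.66 to 4.48, and that of Lif -0.052 ± 1.63 (-3.98 to 3.87). With both set 2 libraries labelled IL-1β and FX11 left out, an alternative chosen after seeing the data, no member was called either. In set 1 alone, with 1 library a condition and no test, FX11 under IL-1β went with 14.4 against 59.1 CPM of Il6, 46.9 against 75.1 CPM of Lif and 61.9 against 118.3 CPM of Socs3, while Il6st was at 1545 against 1642 CPM.

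Over all 32 libraries, the members fell along more than 1 pattern, described here by Pearson's r of log2(CPM + 1), with groups, sets and treatment shared by the points. Il6 was most like Arg2 (r = 0.98), Nfkbiz (0.97) and Best1 (0.96) among 16455 genes, and Lif most like Zswim6 (0.96), Ret (0.96) and Tm4sf1 (0.95). Il11 was most like Odaph (0.96), Bin1 (0.92) and 3300005D01Rik (0.92), and Clcf1 like Ptprn (0.94), Plk3 (0.92) and Ywhag (0.91). Among receptors, Il6st was most like Mmp13, Rnf150 and Sod2 (0.95 each), Osmr like Ptpn2 (0.95), Sod2 (0.94) and Arl5a (0.94), and Lifr like Fam168a (0.94), Stat5a (0.92) and Birc2 (0.90). Il6ra had no close match, with Ccnd3 first at 0.73, then Slc5a6 (0.63) and Edc4 (0.62). Stat3 was most like Sdc4, Cd14 and Serpina3n (0.96 each), and Socs3 like Camkk2 (0.95), Gsr (0.95) and Nfkbiz (0.94). Between members, r was 0.92 for Il6st and Osmr, 0.94 for Il6 and Socs3, 0.88 for Il11 and Clcf1, and -0.45 for Il11 and Lifr.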

How the data were processed

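RNA of 32 libraries was depleted of ribosomal RNA (KAPA Ribo-Erase). Per the study's methods, reads were aligned with STAR to the Ensembl release 76 primary assembly (GRCm38), and the deposited counts are uniquely aligned unambiguous reads per gene from featureCounts, not normalized. The submitters' processing notes give other version numbers for both tools. The CPM and RPKM values deposited beside the counts were made by the authors from these counts and entered no test.

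Samples were grouped by their labels. Genes over 1 CPM in at least 1 library were tested, leaving out 355 ribosomal RNA genes, with edgeR 4.0.16 (TMM, quasi-likelihood test, two-sided, R 4.3.3) and Benjamini-Hochberg adjustment over all genes tested. In each floxed line Il6 passed this filter only through libraries with IL-1β, and Il11 in NFKBIZ flox only through those with GFP virus and IL-1β. Each line was fitted on its 8 libraries in 4 groups, and line differences on 24 libraries in 12 groups with the library set as covariate. Symbols came from GENCODE M21, which named 40340 of 41388 identifiers. The members and lists were chosen with earlier results of these data known. Each member is named, with up to 4 called genes of a list by size of change and the 3 genes most correlated with each member, and any other gene was chosen after its values were seen. Alternatives were DESeq2 1.42.0, limma 3.58.1 with voomWithQualityWeights, RLE factors, no filter, filterByExpr, a replicate block, other sets of libraries and each library left out. Scripts were tested on simulated data. Replicates differed by more than sampling noise (chi-square per degree of freedom 7.5 to 488.2), so none was counted as a duplicate. The highest values were in the wild-type conditions labelled IL-1β (488.2) and FX11 (361.2), which hold the libraries that went against their labels. In the floxed lines the highest was 60.5, in LDHA flox with GFP virus. Il11ra2, which matched 3 identifiers, was left out. Counting intervals cover counting error only.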

Additional observations from a re-analysis of the deposited data

Results flagged for a closer look

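The effect of Cre virus under IL-1β differed between NFKBIZ flox and the mean of LDHA flox and NAMPT flox for 8 members. The test was of the difference in log2 fold change (edgeR's quasi-likelihood test). Of all genes tested in this contrast, 18.0% were lower and 19.5% higher. The 4 ligands were lower in NFKBIZ flox, by -2.88 for Il6, -1.49 for Lif, -3.39 for Il11 and -0.83 for Clcf1. Socs3 (-0.52) and Stat3 (-0.35) were lower as well, and Il6st (0.71) and Lifr (1.37) were higher. The difference between the lines' interactions was also called for Il6st (0.54) and Lifr (1.40). There 7.43% of all genes were higher and 6.92% lower.

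In all of these, NFKBIZ flox libraries came from set 2 only, and the other lines from both sets. The 6 fibroblast and perichondrium markers summed to 723.1 to 1048 CPM in NFKBIZ flox and to 1887 to 4624 CPM in LDHA flox and NAMPT flox. The effect of Cre virus on markers differed in the same direction as Il6st and Lifr in the first contrast, where 8 of 9 chondrocyte markers (median 1.10) and 6 of 6 fibroblast markers (median 0.87) were higher. In the difference of interactions 6 chondrocyte markers were higher and 1 lower, and 3 fibroblast markers were higher. Within set 2 alone Socs3 and Stat3 lost the call in the first contrast, and Il6st lost it in the difference of interactions (log2 difference 0.54). Whether these differences between the lines bear on the members was not tested.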

How the results depend on the processing

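Over 2999 comparisons of a result with an alternative, 2872 kept their side of the threshold, 90 lost a call and 37 gained one. Of those called in either fit, 0 changed direction, and direction was not compared where neither fit made a call. RLE factors and leaving out the set covariate changed no call. In numbers of members called, Cre virus without IL-1β in LDHA flox (1) gave 2 with the replicate block and 1 to 2 with a library left out. In NAMPT flox (3) it gave 1 with limma, 5 with the block, 1 with all 24 libraries in one fit and 1 to 2 with a library left out, and in NFKBIZ flox (0) it gave 1 with no filter. With 1 library left out, Cre virus with IL-1β in NFKBIZ flox (8) gave 5 to 8, its interaction (4) gave 2 to 5, and the difference of interactions between NFKBIZ flox and the other lines (2) gave 2 to 4, or 1 within set 2 only, where Il6st was lost. LDHA flox against NAMPT flox (0) gave 1 with limma. The cause was not tested.

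The replicate block is the library set, taken from the style of the titles. None could be fitted in NFKBIZ flox, whose libraries share 1 set. Libraries of a set deviated together with r of 0.41 to 0.66 in LDHA flox and 0.44 to 0.60 in NAMPT flox. In wild type r was -0.24 to 0.73. With only 2 sets, libraries of a set share a style of title and not a known culture. With 1 group reduced to 1 library, that library was assumed to vary like the others. Il6 without IL-1β and Il11 in NFKBIZ flox rest on few counts.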
